A study of Mus musculus with 2 samples.

Results

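Clusters of distal EP300 peaks are stretches of the genome, away from the starts of protein-coding genes, where several separate EP300 peaks lie close together. They were selected from the optimal set, a list the authors made from both libraries with a cut on the irreproducible discovery rate (IDR). A distal peak had its summit over 1 kb from every protein-coding transcript start. Overlapping distal peaks were merged into regions, regions at most 10 kb apart were stitched, and stitched groups of 3 or more regions were kept as clusters. The rule kept 294 of 7737 optimal peaks (3.8%), in 221 regions and 64 clusters. These were 6.15% of the 4780 distal peaks. The other 4486 distal peaks lay in stitched groups of 1 or 2 regions, 2953 optimal peaks were promoter peaks, and 4 lay off the named chromosomes. Binding of EP300 was mapped by ChIP-seq, sequencing of DNA that an antibody pulls down with the protein, in whole stomach of mice of strain B6NCrl on the day of birth (postnatal day 0), with no treatment or altered genotype named. There were 2 libraries in 1 group, numbered as biological replicates 1 and 2. Their biosample and donor labels are identical, and differences between them may therefore be technical. The sex was not collected, and no other tissue or age was measured.

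EP300 is a histone acetyltransferase and transcriptional co-activator that does not read a DNA sequence itself. Transcription factors bring it to promoters and enhancers, where it acetylates histone tails, and distal EP300 peaks are widely used to map candidate enhancers. Groups of neighbouring enhancers often lie near genes that define a cell type or respond strongly to a signal. The newborn mouse stomach holds a squamous forestomach, a glandular mucosa, smooth muscle layers, nerves, vessels and blood, and whole tissue mixes them all, so a peak cannot be placed in 1 cell type.

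Sequences were read at the strongest peak of the highest ranked clusters (ranks 2 to 11), from 100 bp before to 100 bp after the summit, on the + strand of mm10 (GRCm38.p6). Clusters were ranked by their summed signal, the signal value being the peak caller's own measure of peak strength. In the 10 clusters read, 25 consensus motifs were searched on both strands. Capitals mark only the motifs named for each window, so lower-case letters can hold matches to others of the 25. The first 3 sequences come from 1 cluster in an intron of Zbtb16 and are shown because their peaks were the strongest of all 294 members. Capitals mark matches to the glucocorticoid receptor (GR) consensus, ACA and TGTNC with 3 free bases between them, which is nearly the same on both strands, so that 1 stretch can match on each. The first and the second hold 2 overlapping matches each, and the third holds 5. The windows of the other 2 regions of that cluster held none.
Zbtb16 intron, chr9:48723623-48723823: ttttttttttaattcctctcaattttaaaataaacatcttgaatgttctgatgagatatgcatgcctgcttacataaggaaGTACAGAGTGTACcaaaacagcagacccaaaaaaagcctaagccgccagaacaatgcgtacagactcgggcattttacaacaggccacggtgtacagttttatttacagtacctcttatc
Zbtb16 intron, chr9:48737527-48737727: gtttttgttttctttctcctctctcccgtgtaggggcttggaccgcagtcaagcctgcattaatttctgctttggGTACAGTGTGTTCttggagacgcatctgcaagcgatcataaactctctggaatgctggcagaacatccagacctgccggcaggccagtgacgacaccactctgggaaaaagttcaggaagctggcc
Zbtb16 intron, chr9:48740185-48740385: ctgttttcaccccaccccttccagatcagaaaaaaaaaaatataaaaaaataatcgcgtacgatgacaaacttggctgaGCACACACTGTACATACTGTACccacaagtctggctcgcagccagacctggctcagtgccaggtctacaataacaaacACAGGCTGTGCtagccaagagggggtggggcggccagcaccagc

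A further 5 windows are shown because they held a match to 1 of the following motifs at the strongest summit of their cluster. In the Malat1 window, capitals mark ACCGGTT, the consensus of the epithelial GRHL factors, and GGGCGGG, that of KLF and SP factors. In the windows of Rad51b and Mcl1 they mark GGAATG, the consensus of the TEAD factors of the Hippo pathway. In the Krt42 window they mark GGGTGTGG, a further KLF consensus. In the Id1 window they mark GGGCGGG and TGACGTCA, the cyclic AMP response element (CRE). The strongest windows of the clusters near Neat1, Atf7ip, Rhof and Btg2 held no match to these motifs or to the AP-1 consensus TGAGTCA.
Malat1, upstream, chr19:5803582-5803782: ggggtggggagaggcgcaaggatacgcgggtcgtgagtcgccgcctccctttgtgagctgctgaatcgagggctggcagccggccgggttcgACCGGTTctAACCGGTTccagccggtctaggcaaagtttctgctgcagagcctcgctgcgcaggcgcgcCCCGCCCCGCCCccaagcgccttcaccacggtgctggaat
Rad51b, intron, chr12:79541592-79541792: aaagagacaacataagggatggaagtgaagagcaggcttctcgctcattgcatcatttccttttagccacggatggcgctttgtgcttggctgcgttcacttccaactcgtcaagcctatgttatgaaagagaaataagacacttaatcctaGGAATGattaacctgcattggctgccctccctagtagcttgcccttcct
Mcl1, downstream, chr3:95668196-95668396: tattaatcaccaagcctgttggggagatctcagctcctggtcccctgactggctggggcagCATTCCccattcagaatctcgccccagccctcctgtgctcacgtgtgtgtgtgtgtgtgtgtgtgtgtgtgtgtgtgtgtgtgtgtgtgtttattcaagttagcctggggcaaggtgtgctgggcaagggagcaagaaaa
Krt42, upstream, chr11:100289127-100289327: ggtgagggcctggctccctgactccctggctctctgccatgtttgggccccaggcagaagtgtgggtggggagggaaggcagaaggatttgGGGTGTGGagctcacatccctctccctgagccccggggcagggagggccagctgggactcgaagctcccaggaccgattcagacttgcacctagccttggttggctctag
Id1, upstream, chr2:152735040-152735240: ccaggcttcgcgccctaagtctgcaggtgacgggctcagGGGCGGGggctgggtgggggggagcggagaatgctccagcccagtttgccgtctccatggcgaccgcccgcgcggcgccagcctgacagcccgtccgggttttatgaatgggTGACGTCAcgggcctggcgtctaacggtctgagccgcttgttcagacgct

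Most stitched groups of distal regions were small. Of 3463 groups, 3112 held 1 region, 287 held 2, 48 held 3, 9 held 4, 6 held 5, and 1 held 11. The 64 clusters spanned a median of 10614 bp (3976 to 39600 bp) and 744433 bp in all, and peaks covered a median of 19.4% of a span. The median gap between neighbouring regions was 3635 bp over the clusters. At the edges of the rule, the widest stitched gap in a cluster was 9790 bp, in Zbtb16, and the narrowest gap that kept 2 groups short of 3 regions apart was 10210 bp. The member summit nearest to a coding start lay 1111 bp from that of Id1, and the farthest promoter peak lay 992 bp from one.

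Single member peaks were about as strong as other distal peaks. Their median signal was 30.5 (quartiles 23.3 and 39.8, highest 179.1, n = 294), beside 29.3 (23.6 and 36.9, highest 289.6, n = 4486) for other distal peaks and 32.1 for promoter peaks. These values entered the ranks and are given as a description with no test. The rule asks for a number of regions and not for the strength of each. The strongest region made up a median of 40.4% of the summed strongest signals of the regions of its cluster (16.7% to 72.4%).

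**Figure D1:**
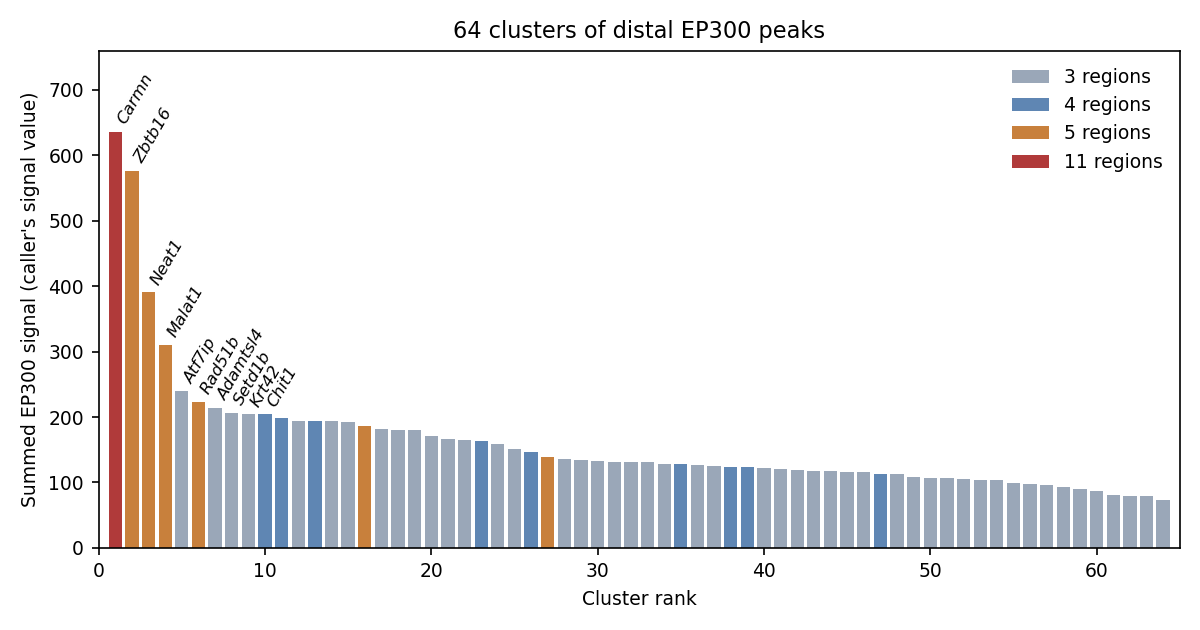
Bars show the summed EP300 signal (caller's signal value, authors' optimal set, vertical axis) of each of the 64 clusters by rank (horizontal axis), coloured by the number of regions, with a gene or transcript in or near the 10 highest. The 4 highest clusters stand between 310.3 and 635.8, and the other 60 lie at or below 239.6.

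Summed signal ran from 73.5 to 635.8, with a median of 131 (quartiles 112 and 183). Long non-coding RNAs and microRNAs, and 1 transcription factor gene, marked the 4 highest clusters. The cluster of Carmn, Mir143 and Mir145a had 635.8, that of Zbtb16 576.3, that of Neat1 390.5 and that of Malat1 310.3. The Neat1 and Malat1 clusters are 21950 bp apart, so that they form 1 locus. Cluster 5, between E330021D16Rik and Atf7ip, had 239.6. The sum counts each overlapping peak of a region. With the strongest peak of each region alone, Zbtb16 kept 576.3 and came first, and the Carmn cluster had 447.0 and came second. On that scale the Mcl1 cluster fell from rank 7 to rank 23 (213.9 to 132.8). Ranked by the replicate 1 list or by the replicate 2 list, Zbtb16 came first and the Carmn cluster second.

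The longest cluster, and the highest by summed signal of all peaks, lay between Csnk1a1, a casein kinase, and Il17b, a cytokine (mm10, chr18:61626371-61665970). It held 11 regions and 20 peaks over 39600 bp and covered no protein-coding gene. It spans 4 non-coding genes: Bvht, Mir145a, Mir143 and Carmn. Mir143 and Mir145a are microRNAs abundant in smooth muscle, and Carmn is the long RNA whose locus hosts them. In order along the chromosome the strongest signals of its regions were 35.5, 74.7, 39.1, 35.4, 35.4, 49.0, 26.8, 61.7, 17.3, 16.2 and 55.9. The strongest lay 5826 bp from a start of Bvht, outside its body, and the last lay 19 bp from a start of Carmn. Regions 4 and 6 lay 219 bp from a start of Bvht and 457 bp from that of Mir145a. In replicate 1 the same regions had 20.1, 34.5, 12.5, 14.1, 11.2, 16.9, 7.02, 25.3, 7.01, 21.4 and 30.5. In replicate 2 they had 11.5, 37.5, 24.0, 16.0, 25.4, 31.7, 14.6, 34.6, 11.97, 5.37 and 27.4. The libraries differed most in the tenth region, which was high in replicate 1 and low in replicate 2. Among the 7737 strongest peaks of each list, 4 of the 11 regions were found in both libraries and 8 in the conservative IDR set.

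The Zbtb16 cluster (chr9:48723574-48740390) held 5 regions inside an intron of Zbtb16, which codes for the zinc finger factor PLZF and is a well-known target gene of the glucocorticoid receptor. Its regions lay between 95660 and 112222 bp from the nearest coding start. Their signals were 170.0, 37.5, 25.4, 164.4 and 179.1. Replicate 1 had 89.6, 16.0, 14.4, 78.8 and 98.9, and replicate 2 had 86.7, 19.4, 14.9, 87.1 and 79.1. In both libraries regions 1, 4 and 5 were far above regions 2 and 3. These 3 strong regions are the ones with the GR matches shown above, and they were also the only member peaks narrower than the full width of 560 bp, at 313, 296 and 280 bp. Across all 221 clustered regions the GR consensus stood in 16 windows (7.24%), beside 7.38% of 3686 other distal regions. In windows centred 1000 bp to the higher coordinate it stood in 12 (5.43%) and 2.55%. That difference did not pass the exact McNemar test in clustered regions, and it passed among the larger number of other distal regions (adjusted p = 1.81e-21, exact McNemar test). The link between signal and motif within this cluster was seen after the values and was not tested.

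At the Neat1 and Malat1 locus on chromosome 19, both clusters held 5 regions. Neat1 is the RNA scaffold of nuclear paraspeckles, and Malat1 is an abundant RNA of nuclear speckles. The Neat1 cluster (chr19:5840415-5850571) had signals of 27.8, 54.6, 96.3, 26.2 and 78.5. Region 2 lay 96 bp from the start of Neat1 and 49 bp from that of its neighbour Frmd8os, and region 5 lay in an untranslated exon of Frmd8. The Malat1 cluster (chr19:5802313-5818464) had signals of 54.4, 125.5, 22.3, 39.7 and 36.7. Its first region lay 79 bp from the start of Malat1, and the strongest lay 1010 bp upstream of it. Regions at the starts of these RNAs count as distal here because only protein-coding starts were used to define promoters. With the starts of every gene type used, 52 of the 64 clusters remained.

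**Figure D2:**
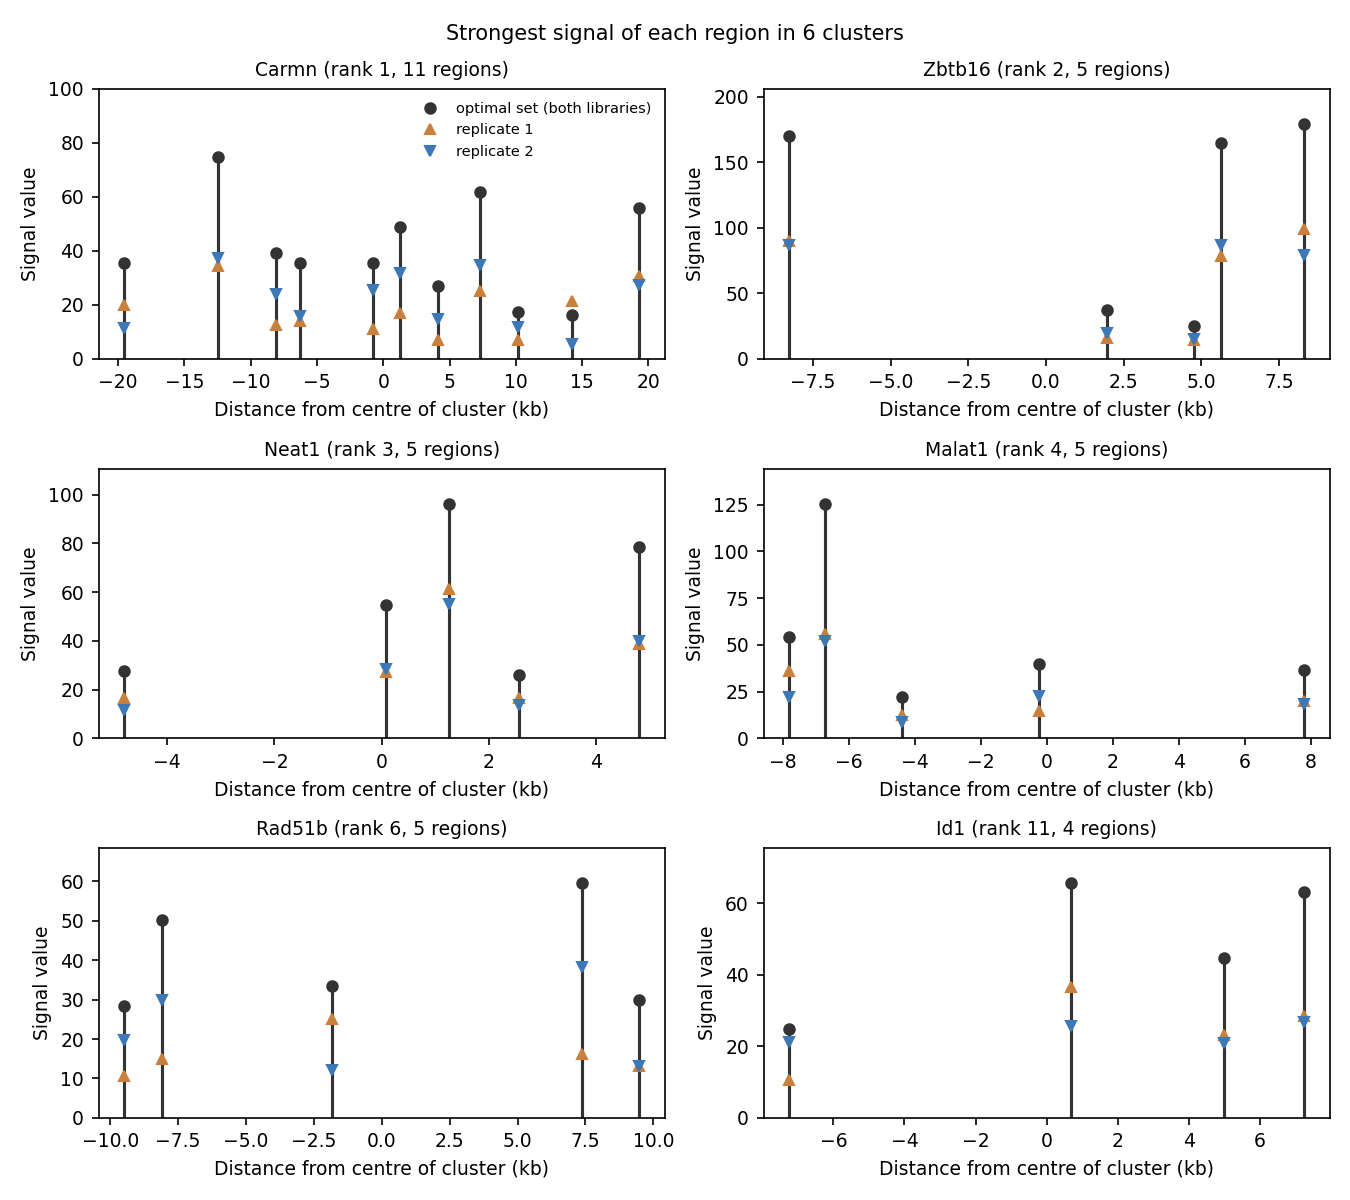
Each panel shows 1 cluster, with the strongest signal value of each region (vertical axis, own scale in each panel) against the distance of its summit from the centre of the cluster in kb (horizontal axis); circles with stems are the optimal set made from both libraries, and triangles are the separate lists of replicate 1 and replicate 2. In the Zbtb16 panel 3 regions stand above 160 and 2 below 40, and in the Carmn panel 11 regions are spread over 39600 bp.

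Clusters 5 to 20 had sums from 239.6 down to 171.5 and lay at genes of varied roles, given here in order of rank. Cluster 6 lay in an intron of Rad51b, a DNA repair gene, between Zfyve26 and Zfp36l1, with signals of 28.5, 50.2, 33.6, 59.5 and 29.8. Cluster 7 lay between the survival factor Mcl1, 4839 bp away, and the matrix gene Adamtsl4, 29 bp away. Cluster 8 lay between the small GTPase gene Rhof and the histone methyltransferase gene Setd1b. Cluster 9 lay between the keratin gene Krt42 and the translation factor gene Eif1, with signals of 45.7, 55.6 and 102.8. Cluster 10 covered part of Chit1, a chitinase, between the growth-arrest gene Btg2 and Chil1.

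Cluster 11 surrounded Id1, an inhibitor of DNA binding that responds to BMP signals, between H13 and Cox4i2. Its 4 regions had signals of 24.8, 65.5, 44.7 and 63.2, with 2 upstream of Id1 and 2 downstream. No promoter peak was called at Id1 itself. Cluster 12 lay 15318 bp from Klf6, an early response KLF factor, and 1232159 bp from Akr1e1, and 1 of its 3 regions had most of the signal (113, 13.0 and 30.0). Cluster 13 covered part of Junb, an AP-1 subunit, between Prdx2 and Hook2, with signals of 38.9, 40.6, 28.0 and 8.70. The Junb promoter had a peak of its own with a signal of 39.3.

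Cluster 14 covered part of Trit1 between Mycl and Bmp8b, and its summed signal was 95.8 in replicate 1 and 53.7 in replicate 2. Cluster 15 covered the end of Vmp1 and the microRNA gene Mir21a, between Tubd1 and Ptrh2. Its signals were 30.5, 27.8 and 67.6, and its nearest summit lay 2225 bp from the start of Mir21a. The mature product is shown because it is the microRNA of this cluster, a widely expressed one; capitals mark the seed (bases 2 to 8), and RefSeq places it at chr11:86584120-86584141 on the - strand of GRCm38.p6.
mmu-miR-21a-5p: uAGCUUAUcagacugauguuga

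Of the remaining clusters among the 20 highest, cluster 16 lay between Arf6 and Vcpkmt and held 5 regions, and cluster 17 lay between Clec2d and Cd69, a lymphocyte activation marker. Cluster 18 covered most of Txnip, the thioredoxin-interacting protein induced by glucose, with 2 regions upstream of the gene and 1 in its body, between Hfe2 and Gm16253. Its member regions had signals of 83.8, 43.5 and 30.4, and the Txnip promoter held a peak of 83.9. Cluster 19 lay in Spidr, with Cebpd and Pkp2 on either side, and cluster 20 lay between 6030408B16Rik and the keratin gene Krt80. Lower clusters with 4 or 5 regions were those of Ptma (23, between Tex44 and Pde6d), Dlgap1 (26, between Akain1 and Tgif1) and Krt1 (27, between Krt2 and Krt77). Others were cluster 35 between Epgn and Ereg, growth factors of the EGF family, cluster 38 at Nr1d1, cluster 39 between Cyb5r3 and A4galt, and cluster 47 between Olfr1368 and Trim27.

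In the separate library lists, the clusters differed in how well each region was found. Of 221 clustered regions, 147 (66.5%) held a summit among the 7737 strongest peaks of replicate 1 and 164 (74.2%) among those of replicate 2. Both libraries held 114 (51.6%), beside 39.5% of all 3907 distal regions, and 24 regions were in neither. The conservative set held 157 (71.0%), beside 64.9% of all distal regions. Since the optimal set was made from both libraries, these shares are no independent check of the members. In 15 of 64 clusters at least 3 regions were among the strongest peaks of both libraries, and in 9 every region was. Every region was in the conservative set in 22 clusters and none was in 3, those of Cpne5, Myh11 and Asprv1.

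The summed signal of a cluster was close in the libraries for most, on scales that each list sets for itself. The ratio of replicate 2 to replicate 1 had a median of 0.972 (quartiles 0.806 and 1.17), and 29 of 64 clusters were higher in replicate 2. Across the 64 clusters Spearman's rho was 0.631 and Pearson's r of the log2 sums was 0.738, as a description, since all clusters share the same libraries. The cluster of Mst1r, a receptor tyrosine kinase of epithelium, differed most. Its sum was 21.9 in replicate 1, where 1 of its 3 regions had no peak, and 76.7 in replicate 2, a ratio of 3.5. None of its regions was among the strongest peaks of replicate 1 and all 3 were among those of replicate 2. At the other end, the cluster between Chd2 and Fam174b had a ratio of 0.518, with 1 region missing in replicate 2.

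**Figure D3:**
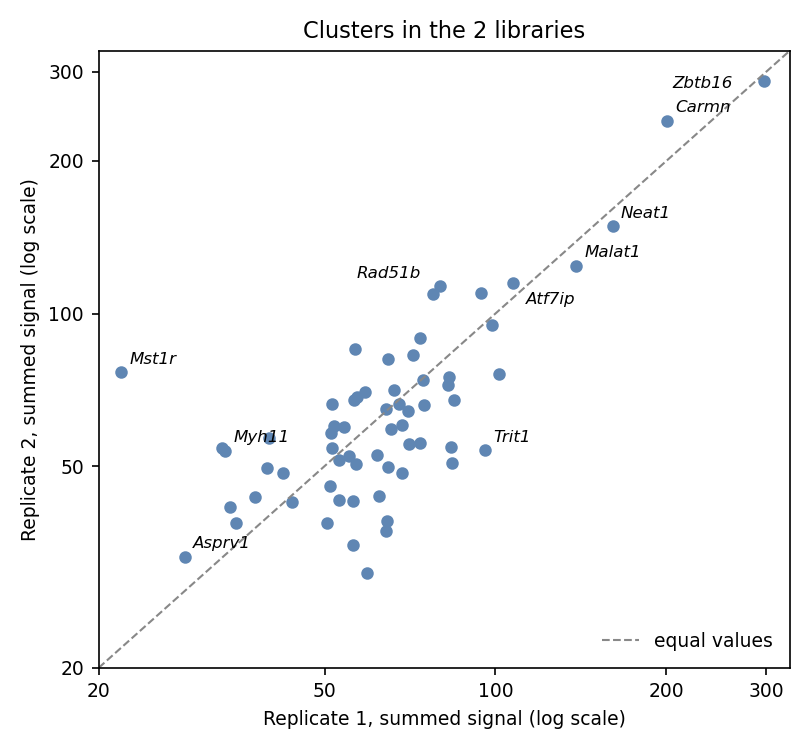
Each point is 1 of the 64 clusters, with the summed signal of its regions in the replicate 1 list (horizontal, log scale) and in the replicate 2 list (vertical, log scale); a region with no peak in a list adds nothing to that sum, and the dashed line marks equal values. The Zbtb16, Carmn, Neat1 and Malat1 clusters are the highest in both libraries, and Mst1r lies farthest from the line.

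Among the gene lists, those of early response and of glucocorticoid and clock genes had the most members at clusters when far flanking genes were counted, and close to the other lists when they were not. A gene was counted if a cluster overlapped its body or if it was the nearest protein-coding gene on either side. Only 1 gene was kept on each side, also where 2 begin at the same base. Foxq1, of the gastric epithelial list, was left out of all counts in this way. In this way 158 of 21911 protein-coding genes (0.721%) were at a cluster, and 34 of these were covered. Of 309 genes in 13 lists, 20 (6.47%) were at a cluster, 12 of them covered or within 50 kb, beside 104 (0.475%) of all coding genes. Within 50 kb the immediate early list had 3 members, the glucocorticoid and clock, smooth muscle contractile and squamous lists 2 each, and the gastric epithelial, BMP and TGF-beta and extracellular matrix lists 1 each. No test compared the lists. The lists were chosen with results of these data known, so the counts are descriptions. Nearness does not show that a cluster acts on a gene.

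The immediate early list, genes switched on within minutes by growth factors and stress, had 6 of 26 members at a cluster (23.1%, exact 95% interval 8.97 to 43.6%). They were Junb, covered, Btg2 at 13814 bp and Klf6 at 15318 bp, and, much farther off, Jun at 326380 bp, Myc at 365646 bp and Zfp36l1 at 563691 bp. All 6 also had a promoter peak, with signals from 17.3 at Myc to 47.3 at Btg2. Of all genes at a cluster 25.9% had one, and of all coding genes 11.1%. Promoter peaks of the immediate early genes away from clusters were not counted. The cluster on the Myc side had signals of 42.5, 26.0 and 31.9, and that on the Jun side had 33.3, 30.0 and 33.9. Between the libraries the cluster on the Jun side summed to 43.8 and 42.6, and that on the Myc side to 56.9 and 50.4. The cluster on the Jun side lay nearer to Fggy, at 167344 bp.

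The glucocorticoid and clock list had 4 of 25 (16.0%, 4.54 to 36.1%), namely Zbtb16, Nr1d1, Cebpd and Cebpb. Nr1d1 codes for REV-ERB alpha, a repressor of the circadian clock, and its cluster of 4 regions had signals of 34.5, 33.2, 31.5 and 24.6. Cebpd and Cebpb code for C/EBP factors of acute phase and hormone responses and lay 57292 and 144162 bp from a cluster. The cluster flanked by Cebpd lay in Spidr. The cluster flanked by Cebpb lay nearer to Ptpn1, at 87026 bp. No promoter peak was called at Zbtb16, Nr1d1, Cebpd or Cebpb, beside 25.9% of all genes at a cluster and 11.1% of all coding genes with one. At Nr1d1 the strongest member summit lay 1432 bp from the coding start, outside the 1 kb limit for a promoter peak. In clusters built from the replicate 2 list alone the count for this list was 7, and from the replicate 1 list alone it was 4.

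Of the lists for tissues and signals, 5 had 2 members each at a cluster. The smooth muscle contractile list had Myh11, smooth muscle myosin, and Synpo2, an actin-bundling protein (2 of 25). The Myh11 cluster, rank 63, had signals of 27.2, 29.0 and 23.3, and its sum was 33.4 in replicate 1 and 53.7 in replicate 2. The cluster 9177 bp from Synpo2 had 28.6, 43.6 and 36.1. Neither gene was at a cluster in the conservative set. The squamous forestomach list had Krt8, a simple epithelial keratin, and Sfn, the squamous 14-3-3 sigma protein (2 of 25, and 4 with the replicate 2 list alone). The Sfn cluster had signals of 37.0, 45.4 and 35.5. It also overlapped Zdhhc18, with 2 of its 3 regions in the body of that gene and 0 in that of Sfn. Its strongest summit lay in an untranslated exon of Zdhhc18. The gastric epithelial factor list had Grhl2, an organiser of epithelial junctions, and Klf5, a factor of proliferating epithelium (2 of 25). Foxq1, also on this list, is not in that count, although its start was the nearest coding start to the strongest summit of cluster 49, at 37400 bp. On that side A530084C06Rik was kept, at 37120 bp from the cluster. The cluster 30414 bp from Grhl2 had 58.3, 56.6 and 40.3, with all 3 regions among the strongest peaks of both libraries. Klf5 was the nearest coding gene on 1 side of 2 clusters that lay 30961 bp apart, the nearer at 263017 bp, with Klf12 on the other side. The BMP and TGF-beta list had Id1 and Tgif1, and the extracellular matrix list had Timp3, a metalloproteinase inhibitor, and Lamc1, a laminin chain (2 of 25 each).

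The other lists had 0 members at a cluster. These were smooth muscle and mesenchyme factors (0 of 26, upper limit 13.2%), glandular stomach products (0 of 25, 13.7%), endothelial, enteric neuron and glia, and blood and immune genes (0 of 20 each, 16.8%), and genes of liver, heart and forebrain (0 of 24, 14.2%). With the list sizes used here, these limits do not exclude shares well above the 0.721% of all genes. The mesenchyme factors had 2 members at a cluster with either library left out and 1 with the pooled list, and the endothelial list had 1 with the pooled list.

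Some keratin genes were at a cluster, a count made after the values were seen. Of 53 keratin genes, 7 (13.2%) were at 4 clusters, beside 0.721% of all coding genes. They were Krt42, Krt80, Krt78 and Krt8, and Krt1, Krt2 and Krt77. The genes lie in dense arrays, so neighbours share a cluster and are not separate events. The Krt1 cluster and that between Krt78 and Krt8 lay 119732 bp apart. The cluster between Krt78 and Krt8 had signals of 52.2, 39.8 and 51.0, and in both libraries all 3 regions were among the strongest peaks. The Krt1 cluster had 44.7, 28.3, 21.9, 12.8 and 30.6, with 2 of 5 regions among the strongest peaks of both.

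Genes at a cluster had a promoter peak more often than all coding genes. Of 158 genes, 41 (25.9%, exact 95% interval 19.3 to 33.5%) had an optimal summit within 1 kb of a coding start, beside 11.1% of all 21911. This is a description, because neighbouring genes can share a promoter peak. Within the spans of the clusters themselves there were 4 promoter peaks, in the clusters of Junb, Txnip, Kdm6b and Tnrc18.

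**Figure D4:**
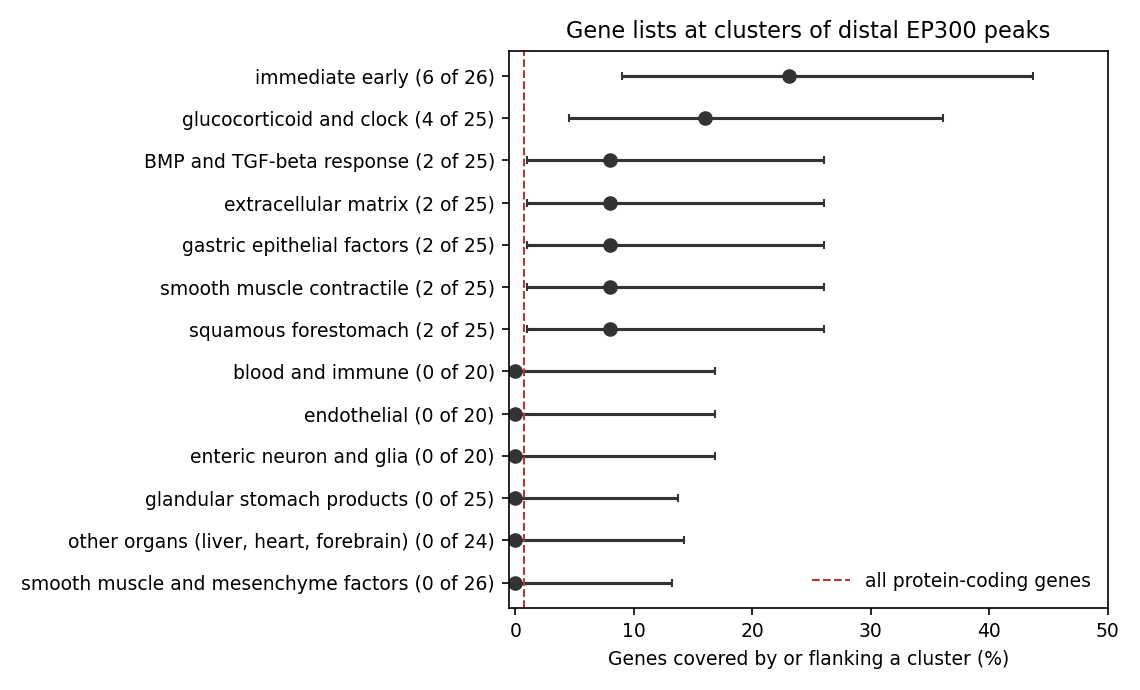
Points show the share of each gene list (percent, horizontal axis) covered by or flanking a cluster, with exact 95% binomial intervals, and the dashed line marks the share of all protein-coding genes. The immediate early list (6 of 26) and the glucocorticoid and clock list (4 of 25) have the highest shares, and 6 lists are at 0.

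Clustered regions lay in introns of coding genes less often than other distal regions. Introns held 57 of 221 clustered summits (25.8%, exact 95% interval 20.2 to 32.1%) and 1598 of 3686 others (43.4%, 41.7 to 45.0%). The log2 odds ratio was -1.13, with an adjusted p of 5.13e-07 from Fisher's exact test (two-sided) over 3 position features, of which this 1 passed (33.3%). Intergenic summits made up 70.6% of the clustered and 53.0% of the other regions. Regions of 1 cluster are neighbours and not independent, and with 1 region taken from each stitched group the log2 odds ratio was -1.28 (exact test, adjusted p = 0.00398). In clusters built from the replicate 1 list alone it was -0.47 (exact test, adjusted p = 0.0615), and from the replicate 2 list -1.06 (adjusted p = 5.17e-08).

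The other 2 position features did not pass. A start of a non-coding gene lay within 1 kb of 8.60% of clustered and 6.76% of other summits (adjusted p = 0.274, Fisher's exact test), and 13.1% and 10.1% lay on a soft-masked base, a mark of repeats (adjusted p = 0.254). Distances from coding starts overlapped widely. The median was 29665 bp for clustered and 25711 bp for other distal regions. The median GC content of the window was 50.8% for clustered and 47.3% for other distal regions, given as a description.

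The motif content of clustered regions did not differ detectably from that of other distal regions. Of 25 motifs, 0 (0.00%) passed Fisher's exact test with Benjamini-Hochberg adjustment, and 2 had an unadjusted p under 0.05. These were the KLF and SP consensus, GGGCGGG, in 9.05% of clustered (5.62 to 13.6%) and 5.26% of other windows (exact test, adjusted p = 0.273), and the nuclear receptor site AGGTCA, in 7.69% (4.54 to 12.03%) and 13.2% (adjusted p = 0.273). GGGCGGG is rich in G and C, and the windows of clustered regions had the higher GC content; its part in the difference was not tested. In the conservative set the KLF and SP motif passed (log2 odds ratio 1.27, exact test, adjusted p = 0.0302). AP-1, the site TGAGTCA of JUN and FOS dimers, stood in 13.6% of clustered (9.35 to 18.8%) and 15.1% of other windows. The most frequent motif was the NF-Y box CCAAT, in 21.3% of clustered and 21.6% of other windows, and the E-box CAGCTG stood in 17.6% and 14.7%. The MEIS site TGACAG stood in 12.7% and 15.7%, and the GATA site AGATAA in 6.79% and 10.9%. The RBPJ site GTGGGAA of Notch signalling stood in 6.79% and 5.48%, and the RUNX site TGTGGTT in 4.98% and 4.61%. The forkhead site TGTTTAC stood in 4.07% and 6.81%, and the C/EBP site TTGCNCAA in 4.07% and 4.88%. The STAT site TTCCNGGAA and the homeobox site TAATTA each stood in 2.26% of clustered windows, beside 1.87% and 4.88% of other windows. The ETS site CCGGAAG stood in 1.81% and 1.71%, and the SOX site ACAATGG in 0.905% and 2.41%. None of these passed the exact test, nor did the NFI, P63, CTCF, MEF2 and CArG box motifs.

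Within the clusters, 2 motifs were more frequent at the summit than in a window of equal length centred 1000 bp to the higher coordinate (8% of 25), and 1 was less frequent (4%), by exact McNemar tests with adjustment over the 25 motifs. TGAGTCA stood at 30 of 221 summits and 5 flanks (13.6% and 2.26%, 6-fold, exact adjusted p = 0.000273). In other distal regions it stood in 15.1% of summits and 3.96% of flanks. GGGTGTGG stood at 13 summits and 2 flanks (exact adjusted p = 0.0285), and in other distal regions in 4.39% of summits and 1.90% of flanks. Among the larger number of other distal regions, 17 of the 25 motifs (68.0%) were more frequent at the summit by the same test. AGGTCA stood at 17 summits and 38 flanks (exact adjusted p = 0.0285), and in other distal regions in 13.2% of summits and 12.5% of flanks. TEAD sites stood at 38 summits and 22 flanks, which did not pass (exact adjusted p = 0.216), and in other distal regions in 17.8% of summits and 10.1% of flanks. TEAD did pass without flanks that overlap a peak (exact adjusted p = 0.0378), within 50 bp (0.0367) and with stitching at 20 kb (0.00732). With the flank taken at the lower coordinate all 3 calls were lost, with exact adjusted p-values of 0.163 for AP-1, 0.486 for KLF and 0.513 for AGGTCA. AP-1 was also lost in the conservative set (exact adjusted p = 0.129), and KLF and AGGTCA were each lost in 8 of 9 alternative settings. Regions of 1 cluster are not independent, and the McNemar tests were not repeated with 1 region from each stitched group.

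No motif was common to every region of any cluster. AP-1 sites were spread over 25 of the 64 clusters, and 4 clusters had them in 2 or more regions, among them the Carmn cluster with 3 of 11 regions and the Grhl2 cluster with 2 of 3. TEAD sites were in 33 clusters, with 2 or more regions in 5. GR sites were in 13 clusters, and the Zbtb16 cluster had the most, 3 of 5 regions. The CArG box, the site of serum response factor at muscle and early response genes, was in 4 clusters. These lay near Btg2, between Irf2bp2 and Tomm20, in Cuedc1, and between Jun and Fggy. The Carmn, Synpo2 and Myh11 clusters held no match. The motif stood in 1.81% of clustered and 2.25% of other windows. A match is a description of the letters in the window and does not show that a factor binds there.

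**Figure D5:**
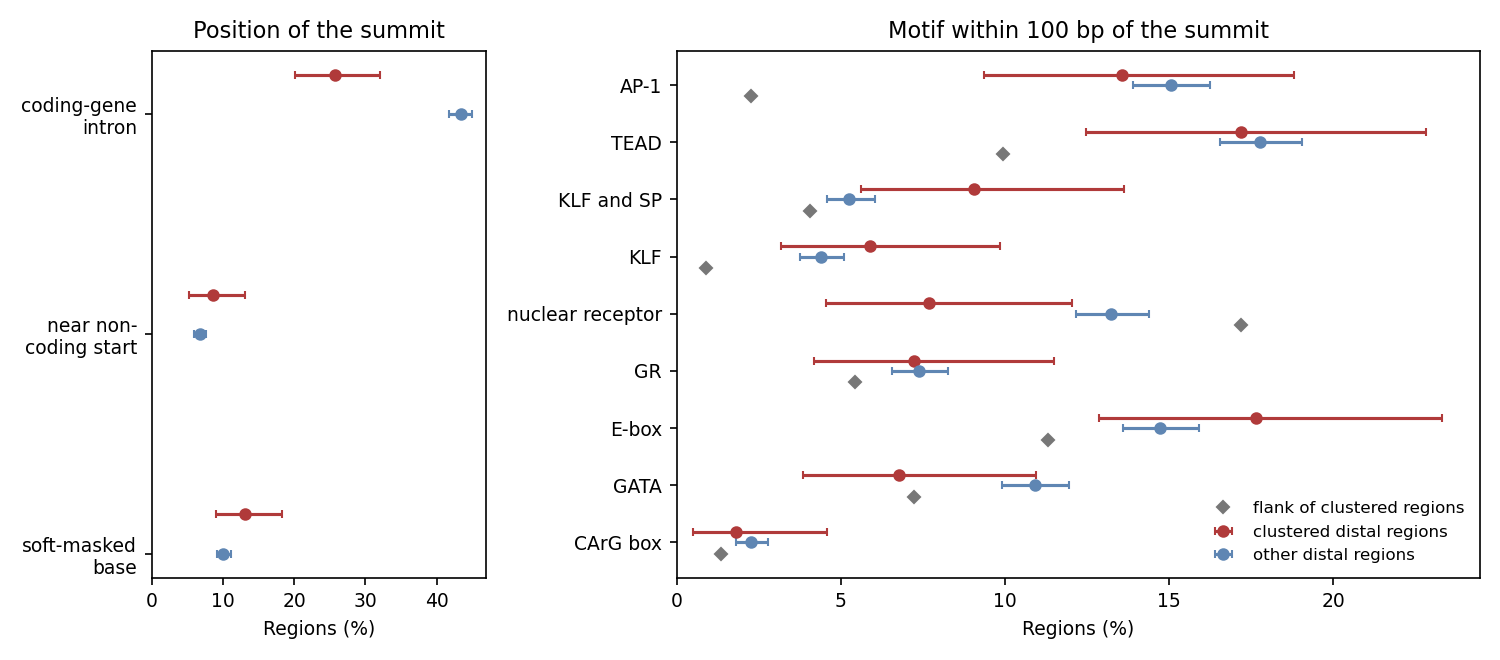
Left, the share of region summits (percent) in an intron of a coding gene, within 1 kb of a non-coding start and on a soft-masked base; right, the share with a motif match within 100 bp of the summit for 9 motifs. Points with exact 95% binomial intervals are the 221 clustered and 3686 other distal regions, and diamonds are flanks of clustered regions; the intervals of the 2 classes are apart for introns and overlap for most motifs.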

How the data were processed

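The authors deposited 5 lists of peaks on mm10 (narrowPeak format), for each replicate, for the pooled reads and as an optimal and a conservative IDR set. The deposited signal value is the peak caller's measure of peak strength and has no common scale between lists. The deposited summit is an offset from the peak start, a unit other than signal. Per the labels' readme texts, the IDR sets came from the pooled list, the lists of both replicates and a further file. Aligner and peak caller: not given in the sources used here. No read counts are given, so depth is unknown.

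Starts and genes came from GENCODE M21, sequence from GRCm38.p6 and the microRNA from RefSeq. Coordinates are 1-based. A region was represented by its strongest peak, and in a replicate by the strongest peak of that list with its summit in the region. Shares were compared by Fisher's exact tests (clustered against other distal) and exact McNemar tests (summit against flank), both two-sided, with Benjamini-Hochberg adjustment over 25 motifs or 3 position features and a threshold of 0.05. In log2 ratios 0.5 was added to each count. Python 3.11.15, scipy 1.17.1, pandas 2.3.3 and pysam 0.24.0 were used, and the rule and tests were tested on simulated data. Members, lists and motifs were chosen with earlier results of these data known. Named were the genes at the 20 highest clusters and at the 10 clusters with most regions, and list members at a cluster; other names, and the windows of Zbtb16 regions 1 and 4, were picked with their values in view. Alternatives were other peak sets, each library alone, other stitching and start distances, region minimums, windows and flanks.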

Additional observations from a re-analysis of the deposited data

How the results depend on the processing

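The number of clusters depends on the rule. Beside 64 clusters, 294 peaks and 20 list genes, there were 24, 85 and 10 in the stronger part of the optimal set, 33, 155 and 10 with stitching at 5 kb, and 123, 572 and 35 at 20 kb. Summits over 10 kb from starts gave 42, 193 and 13, a minimum of 4 regions gave 16, 105 and 7, and a minimum of 2 gave 351, 1010 and 54. Leaving out 1 library gave 69 to 85 clusters, 266 to 320 peaks and 22 to 26 list genes, and 34 (replicate 1 alone) and 37 (replicate 2 alone) of the 64 clusters were overlapped. Of the 10 highest clusters, 6 to 7 were shared when 1 library ranked them and 7 when only the strongest peak of each region was summed.

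The log2 odds ratio for introns ran from -1.06 to -0.47 with 1 library left out and lost its call with replicate 1 alone. That for non-coding starts was 0.41, and 0.65 to 0.97 with 1 library left out, 0.77 with every listed peak (both 0.97 and 0.77 passed) and -0.12 at 20 kb. That for soft-masked bases was 0.45, 0.59 with every listed peak, which passed, and -0.28 with 1 region per group. AP-1 in clustered against other regions was -0.16, 0.061 with summits over 10 kb from starts and 0.39 within 50 bp.

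Against other distal regions, 1 motif was more frequent in the conservative set and 0 otherwise. Against the flank, the number of motifs more frequent at the summit was 2, and 0 in the conservative set and with the lower flank, 1 with summits over 10 kb from starts, with every listed peak and with either library left out, and 5 at 20 kb. The number less frequent was 1, and 0 in the conservative set, at 20 kb, with summits over 10 kb from starts, with every listed peak, within 50 bp, with the lower flank and with either library left out. These counts rest on exact McNemar tests; at an unadjusted p under 0.05 they were 0 to 2 for less frequent and 3 to 8 for more frequent motifs. The causes were not tested. No paired analysis was possible because there is 1 group. Depth is unknown, so no interval that needs it is given.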
